A study of Homo sapiens with 6 samples.

Results

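The 10 genes described here encode tubulins of neurons and proteins that bind or accompany growing microtubules: TUBA1A, TUBB2A, TUBB2B, TUBB3, DCX, DCLK1, STMN2, GAP43, MAP2 and MAP1B. They were taken by gene symbol from a table of 21301 genes, all 10 were present, and all 10 were among the 19694 genes left after filterByExpr removed low counts. The libraries came from SH-SY5Y cells, a human neuroblastoma line that is labelled as neuronal, cultured with fetal bovine serum and collected 72 h after transfection with siControl or with 1 siRNA against PSF (siPSF) at 10 nM. Each group held 3 libraries, which the study calls biological triplicates. All groups were 1 cell line, and a second siRNA against PSF was not analysed here.

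Microtubules are hollow filaments built from dimers of an alpha and a beta tubulin, and each class is encoded by several genes, the isotypes. Neurons use a particular set of isotypes, with the class III beta tubulin TUBB3 as a widely used neuronal marker, and they stabilise and steer the filaments with associated proteins while an axon or dendrite grows. PSF, encoded by SFPQ, is a nuclear RNA-binding protein of the paraspeckle, and the comparison asks how these genes stood after its knockdown.

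Tubulin isotypes are close copies of each other, which bears on every tubulin count below, so the ends of the coding sequences of the neuronal beta isotypes are shown first. Each line gives the last 75 coding bases before the stop codon on hg38, 5′ to 3′, which encode the acidic tail by which isotypes are usually told apart. Capitals mark bases that differ from the named partner in a global alignment of the 75-base ends alone, or that have no partner base there. TUBB2A (chr6:3153866-3153940, minus strand) and TUBB2B (chr6:3224754-3224828, minus strand) were compared with each other, and TUBB3 (chr16:89935727-89935801, plus strand) with TUBB2B.
TUBB2A: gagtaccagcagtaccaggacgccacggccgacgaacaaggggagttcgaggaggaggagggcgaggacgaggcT
TUBB2B: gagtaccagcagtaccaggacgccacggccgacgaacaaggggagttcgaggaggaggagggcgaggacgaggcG
TUBB3: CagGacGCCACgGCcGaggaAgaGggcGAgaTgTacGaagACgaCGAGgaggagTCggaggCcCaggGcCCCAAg
The ends of TUBB2A and TUBB2B differed at 1 base, whereas 33 bases of the TUBB3 end were marked against TUBB2B. The coding sequence has 1350 bases in TUBB3 and 1335 in TUBB2B, and their 75-base ends do not begin at matching places. The 33 marks therefore include bases that are out of register and are not a count of differences between these isotypes. Over the whole coding sequence, TUBB2A and TUBB2B shared 98.2% of their bases and 443 of 445 residues, and TUBB3 and TUBB2B 87.6% of their bases and 411 of 450 residues.

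The libraries were read as 50-base pairs, so the share of 50-base windows of each transcript that also occurs in a transcript of another gene was counted in GENCODE v44. For TUBA1A it was 50.6%, for TUBB2A 64.6% and for TUBB2B 54.9%. In TUBB2A, 59.5% of all windows were also in TUBB2B. For TUBB3 the share was 9.23% when the readthrough gene annotated over the same exons was left out, and 92.8% with it, and that readthrough gene was not analysed here. DCX had 0.288% of its windows elsewhere, and DCLK1, STMN2, GAP43, MAP2 and MAP1B had 0 windows elsewhere. The counts of the 4 tubulin members therefore carry an uncertainty between copies, in TUBB3 mainly with the readthrough gene, and how reads that match several genes were assigned is not given in the sources used here. Exons of TUBB2A, TUBB2B and TUBA1A also overlap an annotated gene on the opposite strand, and windows that match such a gene are part of the shares above.

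**Figure D1:**
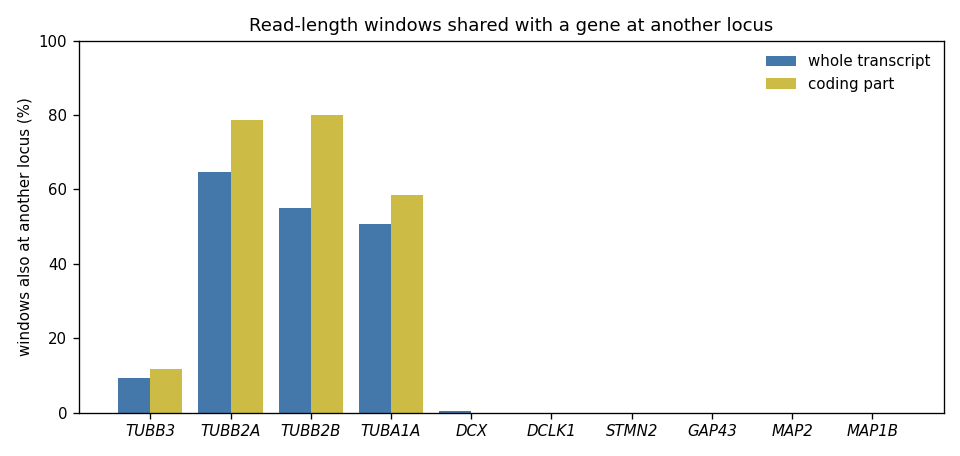
For each member, the bars give the percentage of 50-base windows of the reference transcript (blue) and of its coding part (yellow) that also occur, on either strand, in another gene. Genes over the same exons are left out only where they lie on the same strand, so opposite-strand genes over the same exons are included. The vertical axis is a percentage from 0 to 100. The 3 tubulin genes TUBB2A, TUBB2B and TUBA1A stand between 50.6% and 64.6% over the whole transcript, TUBB3 stands at 9.23%, and the other members are at or close to 0.

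The data were as follows. Summed counts ran from 101540520 to 132420931 per library, and edgeR's common coefficient of biological variation was 12.6%. Levels are given as CPM, read counts scaled to a TMM-normalized library size, where 1 gene is compared between groups, and as the deposited FPKM, which is divided by exon length, where genes are compared with each other. The targeted gene SFPQ was at 372, 356 and 401 CPM in siControl libraries 1 to 3 and at 209, 193 and 165 CPM in siPSF libraries 1 to 3, which left 50.2% of the siControl level (log2 fold change -0.99, standard error 0.10). siPSF replicate 3 stood apart from siPSF replicates 1 and 2 on the second principal component, which held 18.6% of the variance. It also had the lowest SFPQ level of all 6 libraries, at 165 CPM. Where this library changed the call of a member, both values are given. A gene was called at an adjusted p under 0.05, from the quasi-likelihood test of edgeR after Benjamini-Hochberg adjustment across all 19694 genes. By that rule 8.27% of all genes tested were called lower and 6.65% were called higher after siPSF.

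Of the 10 members, 3 were called lower after siPSF (TUBA1A, DCX and MAP1B) beside 8.27% of all genes, and 0 were called higher. At an unadjusted p under 0.05, DCLK1, STMN2 and GAP43 passed as well, but none of them was called after adjustment. The median log2 fold change of the members was -0.13, beside 0.01 over all genes tested. In 4 members (TUBA1A, DCX, MAP1B and DCLK1) the siPSF values were all below the siControl values, as in 17.8% of all genes, and in 1 member (GAP43) they were all above, as in 16.7% of all genes. Without siPSF replicate 3, TUBB3 was also called lower and GAP43 was called higher, so that 4 members were lower and 1 was higher, where 8.73% and 7.07% of all genes were called in these directions. A change in the mix of cells and a change of RNA per cell cannot be told apart in these bulk libraries.

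**Figure D2:**
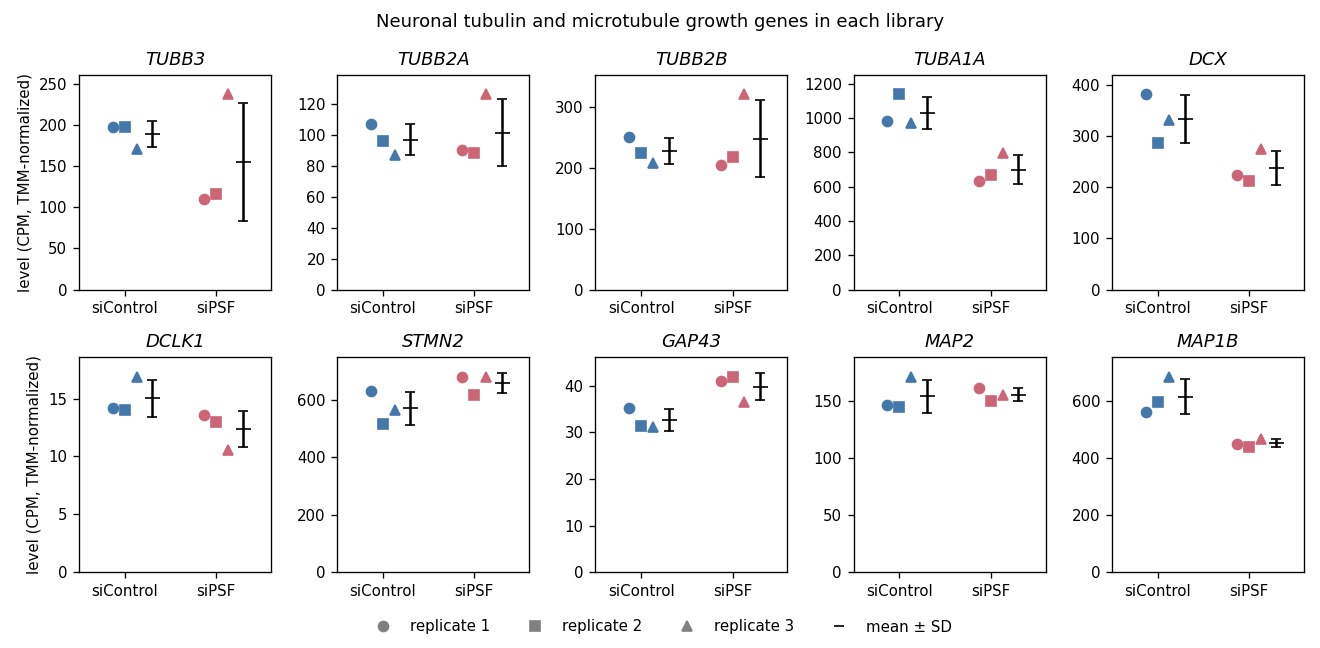
Each panel shows 1 member, with the TMM-normalized level in CPM on a vertical axis that starts at 0, 1 point for each library (circle, square and triangle for replicates 1, 2 and 3) and the mean with SD in black. TUBA1A, DCX and MAP1B are lower in all 3 siPSF libraries, and siPSF replicate 3 is the highest library for TUBB3, TUBB2A and TUBB2B.

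TUBA1A (gene ID 7846; chr12:49184795-49189080, as are all gene positions here from RefSeq on GRCh38.p14) encodes the alpha tubulin that dominates in growing neurons, and mutations in it cause malformations of the cortex. The siControl libraries held 980, 1137 and 967 CPM, and the siPSF libraries 635, 665 and 797 CPM. All siPSF libraries were lower, and the groups were separated by more than the spread within them. The mean fell from 1028 ± 94.6 to 699 ± 86.4 CPM (SD, n = 3 each), or to 68.0% of the siControl level (log2 fold change -0.56, SE 0.11, edgeR adjusted p = 0.0047). TUBA1A was called in all 6 fits that each left out 1 library, with log2 fold changes from -0.66 to -0.49. The other abundant alpha tubulin genes, TUBA1B and TUBA1C, also fell, by 0.50 and 0.58 on the log2 scale (SE 0.09 each, edgeR adjusted p = 0.0035 and 0.0017). Since these 3 genes share windows and the assignment of such reads is not given, their falls cannot be taken as 3 separate measurements.

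TUBB3 (gene ID 10381; chr16:89921925-89936097) was the member that depended most on 1 library. It stood at 198, 198 and 170 CPM in siControl, and at 111, 116 and 237 CPM in siPSF. siPSF replicates 1 and 2 lay below all siControl libraries and siPSF replicate 3 lay above all of them, so the groups overlapped. Over all 6 libraries the log2 fold change was -0.29 (95% interval -0.78 to 0.21, edgeR adjusted p = 0.43), which includes a fall of 0.78 as well as no change. Without siPSF replicate 3 it was -0.73 (SE 0.096, edgeR adjusted p = 1.0e-04), or 60.1% of the siControl level. Without siPSF replicate 1 it was -0.10 and without siPSF replicate 2 it was -0.12 (edgeR adjusted p = 0.83 and 0.78). The size of the TUBB3 change therefore depends on which siPSF library is left out, and the fit without replicate 3 removes the library that differs. Among all genes tested, 0.487% had as high a ratio of siPSF replicate 3 to the mean of the other siPSF libraries as TUBB3, for which the log2 ratio was 1.07.

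TUBB2A (gene ID 7280; chr6:3153666-3157544) and TUBB2B (gene ID 347733; chr6:3224277-3227653) are neighbouring class II beta tubulin genes, and TUBB2B is known for its part in neuronal migration. TUBB2A was at 107, 96.2 and 87.5 CPM in siControl and at 90.7, 88.2 and 127 CPM in siPSF. TUBB2B was at 251, 225 and 208 CPM in siControl and at 204, 218 and 320 CPM in siPSF. In both genes the siPSF values of replicates 1 and 2 lay within or just below the siControl range and replicate 3 was the highest library. The log2 fold changes were 0.07 (95% interval -0.22 to 0.36, edgeR adjusted p = 0.77) for TUBB2A and 0.12 (95% interval -0.20 to 0.44, edgeR adjusted p = 0.63) for TUBB2B. Without siPSF replicate 3 they were -0.12 and -0.11, again without a call. With the counts of both genes summed, so that the assignment of reads between them does not matter, the log2 fold change was 0.11.

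DCX (gene ID 1641; chrX:111293779-111412192) encodes doublecortin, which binds between the protofilaments of microtubules in migrating neurons. The siControl values were 382, 287 and 332 CPM and the siPSF values 224, 212 and 275 CPM, so that the highest siPSF library lay just below the lowest siControl library. The mean fell from 334 ± 47.1 to 237 ± 33.3 CPM (SD, n = 3 each), or to 71.0% of the siControl level (log2 fold change -0.49, SE 0.12, edgeR adjusted p = 0.018). The call was close to its limit: it was lost without siControl replicate 1 (edgeR adjusted p = 0.058), siControl replicate 3 (0.063), siPSF replicate 1 (0.058) or siPSF replicate 2 (0.054), while the log2 fold change stayed between -0.61 and -0.39.

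DCLK1 (gene ID 9201; chr13:35768652-36131939) encodes a kinase with doublecortin domains. It was the least abundant member, at 14.1, 14.0 and 16.9 CPM in siControl and 13.6, 13.0 and 10.6 CPM in siPSF. The siPSF libraries were all lower, but the gap between the groups, from 13.6 to 14.0 CPM, was smaller than the spread within each. The log2 fold change of -0.28 (95% interval -0.55 to -0.0055) was not called (edgeR adjusted p = 0.16).

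MAP1B (gene ID 4131; chr5:72107475-72209565) encodes a large microtubule-associated protein that is made early in axon growth. It stood at 563, 599 and 685 CPM in siControl and at 449, 440 and 466 CPM in siPSF. The siPSF libraries lay close together and below all siControl libraries. The fall to 73.4% of the siControl level (log2 fold change -0.45, SE 0.092, edgeR adjusted p = 0.0070) was called in all 6 fits that each left out 1 library.

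MAP2 (gene ID 4133; chr2:209424047-209734112) encodes the microtubule-associated protein that marks dendrites. It was at 146, 144 and 171 CPM in siControl and at 161, 149 and 155 CPM in siPSF, so the groups overlapped. The log2 fold change was 0.01 (95% interval -0.18 to 0.21, edgeR adjusted p = 0.94), an interval that leaves out a change as large as that of MAP1B. FPKM per count of MAP2 varied by up to 9.01% between libraries, against at most 3.51% in the other members, and on the deposited FPKM the means were 18.3 and 16.5.

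STMN2 (gene ID 11075; chr8:79611117-79666158) encodes stathmin 2, a neuronal protein that binds tubulin dimers and is needed for axon maintenance. Its level was 630, 517 and 564 CPM in siControl and 680, 618 and 680 CPM in siPSF. The siPSF values were mostly higher, with 1 siPSF library inside the siControl range, and the log2 fold change of 0.21 (95% interval 0.0049 to 0.41) was not called (edgeR adjusted p = 0.16).

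GAP43 (gene ID 2596; chr3:115623510-115721483) encodes a membrane protein of the growth cone rather than a microtubule protein. It was at 35.3, 31.3 and 31.1 CPM in siControl and at 41.0, 41.9 and 36.5 CPM in siPSF, with no overlap between groups. The log2 fold change of 0.29 (SE 0.096) missed the threshold over all libraries (edgeR adjusted p = 0.064) and passed it without siPSF replicate 3, at 0.35 (edgeR adjusted p = 0.029).

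**Figure D3:**
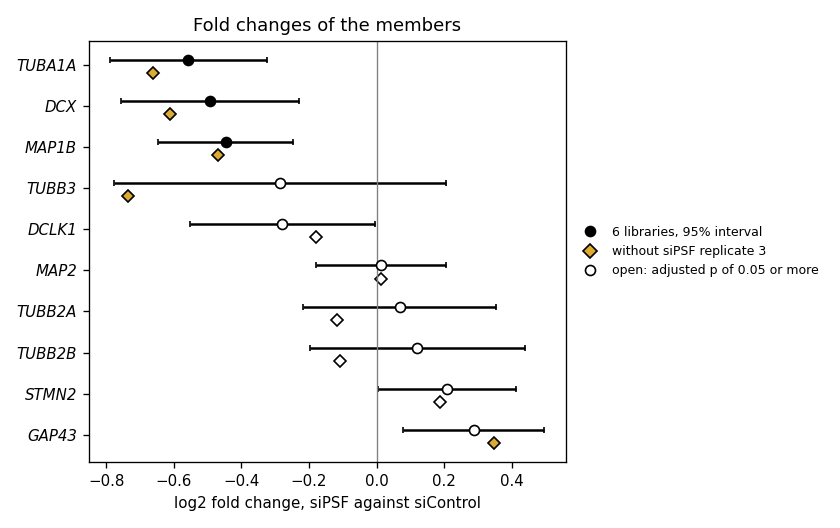
The horizontal axis gives the log2 fold change of siPSF against siControl for each member, as circles with 95% intervals for all 6 libraries and as diamonds without siPSF replicate 3; filled symbols have an adjusted p under 0.05. TUBA1A, DCX and MAP1B are filled in both fits, and TUBB3 moves from -0.29 to -0.73.

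Per length of exon, TUBA1A was the highest member in siControl, at 570 ± 45.0 FPKM (SD, n = 3), above 99.6% of all genes tested. STMN2 followed with 279 ± 28.2 FPKM, then TUBB2B with 110 ± 8.72, TUBB3 with 102 ± 6.32, TUBB2A with 55.5 ± 4.71, MAP1B with 48.7 ± 6.10, DCX with 34.2 ± 4.74, GAP43 with 19.0 ± 1.26, MAP2 with 18.3 ± 1.05 and DCLK1 with 1.82 ± 0.252 FPKM (SD, n = 3 each). In siControl the ranges of TUBB2B and TUBB3, of TUBB2A and MAP1B and of GAP43 and MAP2 overlapped, so these neighbours in the order were not separated by their spread. In siPSF, TUBA1A still led with 367 ± 43.4 FPKM, and STMN2 came close to it with 306 ± 18.3 FPKM (SD, n = 3 each).

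The balance between members within a library was compared for 5 pairs as the log2 ratio of their FPKM. MAP2 against MAP1B went from -1.41 ± 0.112 to -1.04 ± 0.109 (SD, n = 3 each), higher in all siPSF libraries than in any siControl library (exact permutation test, two-sided, p = 0.10, adjusted over 5 pairs p = 0.50). With 3 libraries against 3, 0.1 is the smallest p this exact test can give. TUBB2A against TUBB2B was nearly constant, at -0.99 ± 0.0117 in siControl and -1.03 ± 0.0878 in siPSF (SD, n = 3 each; exact permutation test, two-sided, p = 0.40). The assignment of reads that match both genes is not given and bears on this ratio. The groups overlapped in the remaining pairs, with exact permutation p from 0.30 to 0.80. DCX against DCLK1 was at 4.50, 4.15 and 4.05 in siControl and at 3.74, 3.75 and 4.38 in siPSF, so that siPSF replicates 1 and 2 lay below all siControl libraries and replicate 3 among them. The difference of -0.28 was -0.49 without siPSF replicate 3 and -0.14 without siControl replicate 1. TUBB3 against TUBA1A stood between -2.55 and -2.34 in 5 of the libraries and at -1.78 in siPSF replicate 3.

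Among the alpha tubulins, TUBA1A and TUBA1B held nearly equal shares of the summed FPKM, 48.3% ± 0.173 and 48.3% ± 0.281 in siControl (SD, n = 3 each), and TUBA1C held 3.31%. The sum of the 5 alpha isotypes went from 1180 ± 91.3 to 775 ± 62.1 FPKM (SD, n = 3 each) after siPSF, with no overlap (exact permutation test, two-sided, p = 0.10, the smallest this design allows), while the share of TUBA1A was 47.3% ± 1.75 in siPSF. That sum was at 65.7% of siControl, beside 68.0%, 70.5% and 67.1% for TUBA1A, TUBA1B and TUBA1C on counts. On log2(FPKM + 0.5) the median log2 fold change of all genes was itself -0.06, so sums of FPKM lean to lower values after siPSF. Among the 8 beta isotypes, the general isotype TUBB held 54.1% in siControl, TUBB2B 13.3%, TUBB3 12.3%, TUBB4B 12.1% and TUBB2A 6.70%. The shares of TUBB2A and TUBB2B were higher in every siPSF library, at 8.05% ± 0.282 and 16.4% ± 0.789 (SD, n = 3 each; exact permutation test, two-sided, p = 0.10 for each, adjusted p = 0.33). Their own mean FPKM hardly moved, from 55.5 to 55.3 for TUBB2A and from 110 to 114 for TUBB2B, while the share of TUBB went from 54.1% to 50.7%, with overlap between groups. Since TUBB2A and TUBB2B share windows, their shares cannot be taken as 2 separate measurements. The share of TUBB3 was 9.59% and 9.66% in siPSF replicates 1 and 2 and 14.4% in replicate 3. The summed beta FPKM was 601 and 615 in siPSF replicates 1 and 2, below all siControl libraries (792 to 862), and 844 in replicate 3. TUBB, TUBB2A, TUBB2B, TUBB3, TUBB4A and TUBB4B each had their highest siPSF level in replicate 3, as did the alpha isotypes TUBA1A, TUBA1B and TUBA1C. The less abundant TUBB6 and TUBB8 had their lowest siPSF level there.

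**Figure D4:**
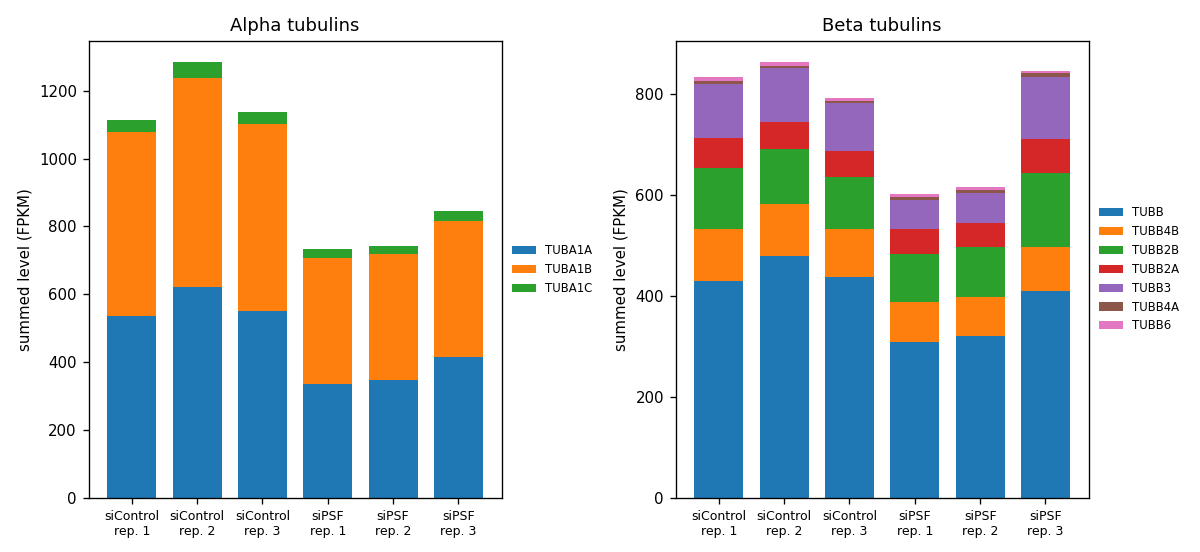
Stacked bars give the deposited FPKM of the alpha isotypes (left) and beta isotypes (right) in each library, on axes that start at 0; isotypes with a mean under 0.5% of their class are left out. The alpha sum is lower in all 3 siPSF libraries, and the beta sum is lower in siPSF replicates 1 and 2 and within the siControl range in replicate 3.

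The members differ widely in the length of their genes. TUBB2B, TUBB2A, TUBA1A and TUBB3 span 3.38, 3.88, 4.29 and 14.2 kb, STMN2 55.0 kb and GAP43 98.0 kb, and the longest are MAP1B with 102 kb, DCX with 118 kb, MAP2 with 310 kb and DCLK1 with 363 kb. Of all genes with a span of 100 kb or more, 25.2% were called lower, against 5.08% of shorter genes. Among the members of that length, MAP1B and DCX were called and the longer MAP2 and DCLK1 were not, and TUBA1A was called at 4.29 kb.

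The sequences before the starts of the 3 called members are shown because these genes fell together, each as the 250 bases before the RefSeq start on GRCh38.p14, 5′ to 3′ on the strand of the gene. Capitals mark matches on either strand to any of 5 motifs, which were also searched in all 35116 promoters of that table. The motif CCAAT was in 32.0% of them, GGGCGG in 42.6%, TATAAA in 10.7%, CACGTG in 6.35% and TGACGTCA in 1.65%. The windows are chr12:49189081-49189330 (minus strand), chrX:111412193-111412442 (minus strand) and chr5:72107225-72107474 (plus strand).
TUBA1A: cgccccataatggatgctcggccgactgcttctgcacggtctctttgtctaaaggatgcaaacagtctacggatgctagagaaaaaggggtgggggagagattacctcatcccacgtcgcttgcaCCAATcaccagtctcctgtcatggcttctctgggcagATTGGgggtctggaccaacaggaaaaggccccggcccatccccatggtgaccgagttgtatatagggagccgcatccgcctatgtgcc
DCX: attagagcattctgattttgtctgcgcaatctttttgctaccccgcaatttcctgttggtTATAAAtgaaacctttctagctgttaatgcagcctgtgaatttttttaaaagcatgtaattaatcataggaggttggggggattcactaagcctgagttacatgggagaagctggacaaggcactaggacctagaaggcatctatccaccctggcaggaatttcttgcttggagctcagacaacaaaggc
MAP1B: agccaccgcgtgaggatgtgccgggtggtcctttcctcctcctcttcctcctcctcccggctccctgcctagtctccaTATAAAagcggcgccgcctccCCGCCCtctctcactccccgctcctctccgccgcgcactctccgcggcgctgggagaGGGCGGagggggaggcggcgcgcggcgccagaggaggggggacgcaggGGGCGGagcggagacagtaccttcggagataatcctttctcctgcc
TUBA1A held 2 matches to CCAAT, DCX held 1 match to TATAAA, and MAP1B held 1 match to TATAAA and 3 to GGGCGG, so that no motif searched was present in all 3 windows. Their GC content was 56.4%, 42.8% and 70.0%. A match is a stretch of letters and not a bound site.

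To set the members beside the rest of the system, 185 other genes in 8 lists were examined, of which 173 were in the table and tested. Of these, 29 were called lower (beside 8.27% of all genes) and 10 higher (beside 6.65%), with a median log2 fold change of -0.02. Of the 29 lower genes, 19 span 100 kb or more, a length at which 25.2% of all genes were called lower, against 5.08% of shorter genes. How many of the listed genes have that length is not given here, and the part of gene length in these falls was not tested. The counts changed with single libraries, to 14 lower and 4 higher without siControl replicate 2, 19 and 6 without siControl replicate 3 and 18 and 6 without siPSF replicate 1. Calls over all genes fell in the same fits. They went from 1628 lower and 1310 higher to 928 and 572, 1022 and 732, and 1130 and 845, in the same order. The counts also depended on the scale. With limma on FPKM rescaled so that each library has an equal sum, 58 were lower and 3 higher, on a scale where 23% of all genes were called lower and 3.12% higher and where the median of all genes was -0.16. On that scale the members kept 3 calls, all lower (TUBA1A, DCX and MAP1B), and TUBB2A, TUBB2B and MAP2, which were not called on either scale, had values of -0.14, -0.10 and -0.26. Set against the all-gene median there, these were 0.03, 0.06 and -0.10, so TUBB2A and TUBB2B stood slightly above that median, as on counts.

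Among the other tubulins, 4 of 13 tested genes fell and 0 rose, with a median of -0.27. Beside TUBA1B and TUBA1C these were TUBG1, the gamma tubulin of nucleation sites, which fell by 0.52 on the log2 scale (edgeR adjusted p = 0.0020), and TUBG2, which fell by 0.42 (edgeR adjusted p = 0.018) and is named after its value was seen. Its call was lost without siControl replicate 2 (edgeR adjusted p = 0.078). Without siPSF replicate 3, 6 of the 13 were called lower. The added genes were TUBB, at -0.44 (edgeR adjusted p = 0.0090, against -0.29 and 0.11 with all libraries), and TUBB4B, at -0.30 (edgeR adjusted p = 0.035, against -0.25 and 0.084). The genes of tubulin folding, the chaperonin CCT, prefoldin and the tubulin cofactors, stood on the other side, with 9 of 22 called higher, 0 lower and a median of 0.23. CCT8 rose by 0.52, PFDN4 by 0.71 and PFDN5 by 0.46 on the log2 scale (edgeR adjusted p = 0.0023, 0.0032 and 0.0063). On rescaled FPKM the folding genes had 3 called higher and 1 lower and a median of 0.04, 0.20 above the all-gene median there, against 0.22 above it on counts.

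Of the structural microtubule-associated proteins, 3 of 14 fell, MAP4 (-0.35), MAPT (-0.43) and MAP6 (-0.33), and 0 rose, with a median of -0.07. These calls were unsteady: in the 6 fits that each left out 1 library, MAP4 was called in 4, MAP6 in 2 and MAPT in 1. Without siPSF replicate 3 only MAP4 was called. Of the 8 other stathmins and doublecortin family genes tested, 1 was called, DCLK3, which rose by 0.54 on the log2 scale from 2.41 CPM and was called in 1 of the 6 fits that left out a library. Of the proteins of microtubule ends, 4 of 26 fell, with log2 fold changes of -0.75 in NAV2, -0.41 in NAV1 and -0.47 in DST, and 0 rose. NAV2 kept its call in 4 of the 6 fits that left out a library, and NAV1 and DST in 3 each. The enzymes that modify or sever tubulin had 4 of 27 genes lower and 0 higher, among them TTL, the tubulin tyrosine ligase, at -0.36, TTLL11 at -0.53 and AGBL4, a carboxypeptidase that removes tail glutamates, at -1.56 from 2.75 CPM. TTLL11 lost its call without siControl replicate 1 (edgeR adjusted p = 0.063). Its FPKM per count varied by up to 22.7% between libraries. On the deposited FPKM the TTLL11 means were 1.89 in siControl and 1.64 in siPSF, and the groups overlapped. For the motors, 5 of 34 genes fell and 0 rose, among them KIF26B (-0.98), KIF1B (-0.54) and the dynein intermediate chain DYNC1I1 (-1.12). The mean siControl levels of these 3 were 135, 193 and only 4.02 CPM.

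The list closest to GAP43 held growth cone and adhesion proteins, receptors and 5 nuclear transcription factors of axon growth, and had 9 of 29 genes lower and 0 higher and a median of -0.20. Of the 5 transcription factors, 3 were lower, and of the other 24 genes 6 were lower, with a median of -0.17. Without siPSF replicate 3, 12 of the 29 were lower, 4 of the transcription factors and 8 of the other genes. DPYSL3, a collapsin response mediator that binds tubulin, fell from 254 ± 50.0 to 124 ± 29.0 CPM (SD, n = 3 each; log2 fold change -1.04, SE 0.17, edgeR adjusted p = 0.0016). CHL1, a cell adhesion protein, had -1.05 from only 1.94 CPM in siControl and lost its call without siControl replicate 3 (edgeR adjusted p = 0.066). The transcription factors KLF7 and ATF3 had -0.56 and -0.46.

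**Figure D5:**
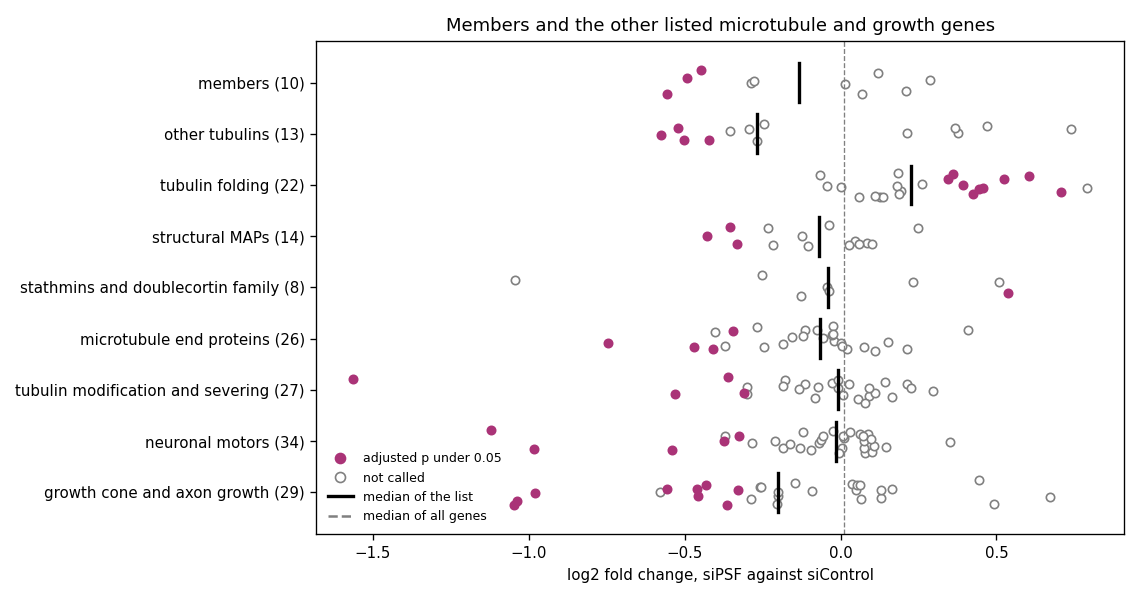
Each point is 1 gene, placed by its log2 fold change of siPSF against siControl within its list (the number tested in brackets), with calls filled, list medians as black bars and the median of all genes as a dashed line. The calls of the tubulin folding list are on the higher side and those of the other tubulins and of the growth cone and axon growth list are on the lower side.

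The labelled identity of the cells was checked with markers of sympathetic neuroblasts. HAND2, GATA2, GATA3, PHOX2A, ISL1 and DBH were at 208 to 1738 CPM in siControl, whereas TH, a defining enzyme of catecholamine neurons, was at only 0.741 CPM. Of 10 such markers, DBH (-0.68) and TH (-1.20) were lower and GATA3 (0.30, edgeR adjusted p = 0.032) was higher, with summed levels of 4799 to 5479 CPM in siControl and 4275 to 4885 CPM in siPSF. The GATA3 call was lost whichever library was left out, with edgeR adjusted p from 0.060 to 0.099, and that of TH without siControl replicate 2 or 3. Markers of the mesenchymal type of neuroblastoma cell summed to 357 to 373 and 328 to 354 CPM, with FN1 (-0.60) and COL3A1 (-0.71) lower among 9 tested. COL3A1 kept its call in 2 of the 6 fits that left out a library. The log2 fold change was above 0 in 6 of the 9, with a median of 0.35, and 3 of the 9 were called higher without siPSF replicate 3. In siControl, TWIST1 was at 204 CPM, FN1 at 78.7 CPM and VIM at 67.9 CPM, while CD44 and YAP1 were at 0.765 and 0.451 CPM. Of 8 glial and Schwann cell markers, 5 were not analysed here, SOX10, GFAP, OLIG2 and CDH19 among them, and the other 3 summed to 1.86 to 2.16 and 1.48 to 3.14 CPM. Of 8 proliferation genes, MKI67 was lower (-0.56) and 7 were not called, with sums of 632 to 704 and 581 to 640 CPM. The part of these differences in the members' values was not tested.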

How the data were processed

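SH-SY5Y libraries (3 siControl, 3 siPSF) were analysed, grouped by sample title; 0 per-sample columns were left unused. The authors deposited raw read counts and FPKM per gene (RPKM in their methods). The methods name poly(A) selection, Bowtie 2, TopHat and RefSeq on hg38; the submitters' processing notes name Trimmomatic, HISAT2 2.1.0, StringTie 2.1.3b and GRCh38, so which tools made the table is not settled. The labels name a stranded mRNA kit and the methods another TruSeq kit, and whether counting used strand is not given in the sources used here. The smallest count is 1, so genes with no read in a library are not analysed here.

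Counts were filtered with filterByExpr, TMM-normalized and tested with edgeR 4.0.16 (quasi-likelihood, no block; R 4.3.3). Alternatives were DESeq2 1.42.0, its size factors, no filter, a replicate block, each library left out, and limma 3.58.1 on log2(FPKM + 0.5) or, as a second pseudocount, log2(FPKM + 1), for genes with a mean of at least 0.5. The scripts were tested on simulated data. Exact tests used scipy 1.17.1. The members and gene lists were chosen with earlier results of these data known. Named list genes are the 3 called genes with the smallest p and those called with over 2-fold change. Leaving libraries out of ratios and shares was chosen after seeing the data. Same-numbered libraries did not deviate together (correlations -0.022, 0.056 and 0.056). No protein sequence table was used here. Some sequences and marker genes are not reported here.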

Additional observations from a re-analysis of the deposited data

How the results depend on the processing

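The fall of SFPQ kept its call in all 12 alternatives run. The 3 members called lower stayed 3 under the alternatives that kept all libraries (DESeq2 Wald, DESeq2 size factors, no filter, replicate block and both limma fits on FPKM with a pseudocount of 0.5), and leaving out single libraries gave 2 to 4. Members called higher went from 0 to 1 under the replicate block (GAP43, edgeR adjusted p = 0.049), and 0 to 1 when libraries were left out. Same-numbered libraries did not deviate together, which does not settle whether the replicate numbers pair these samples. The block changed no other member's call. DESeq2's Wald test gave GAP43 an adjusted p of 0.051 and called 0 members higher. The listed genes, 29 lower and 10 higher, became 14 to 33 lower and 4 to 10 higher with single libraries left out, and 58 and 3 with limma on rescaled FPKM, where 88.0% of all calls were lower, against 55.4% on counts and 70.8% on FPKM as deposited. Over all genes, leaving out single libraries gave 928 to 1735 lower and 572 to 1405 higher, against 1628 and 1310 with all libraries. On rescaled FPKM the median of the members was -0.29 and that of all genes -0.16. Counted as 1 isotype, TUBB2A and TUBB2B gained 4.47 percentage points of the beta tubulin FPKM, where each alone gained 1.34 and 3.13. With single libraries left out, the changes in share lay from -2.03 to -0.37 points for TUBA1A, -2.72 to -0.31 for TUBB3, 1.14 to 1.64 for TUBB2A and 2.69 to 3.69 for TUBB2B, and the changes in log2 ratio from 0.30 to 0.42 for MAP2 against MAP1B, -0.07 to 0.31 for TUBB3 against TUBA1A, -0.49 to -0.14 for DCX against DCLK1, -0.15 to 0.0028 for STMN2 against GAP43 and -0.09 to -0.0079 for TUBB2A against TUBB2B. The cause of these differences was not tested. With 3 libraries a group, the standard errors of the members' log2 fold changes were 0.088 (MAP2) to 0.23 (TUBB3), which limits the changes that could be called. DESeq2 gave no adjusted p for 1652 genes.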
